A study of Mus musculus with 6 samples.

Results

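The 10 genes described here encode parts of the nuclear transport machinery and the nuclear lamina: Ran, Ranbp1 and Rcc1 of the Ran GTPase cycle, the transport factors Kpna2, Kpnb1, Xpo1 and Nxf1, and the lamin genes Lmnb1, Lmnb2 and Lmna. They were picked by symbol from 23415 gene entries with a usable status, after Ranbp1, Lmnb1 and Nxf1 had been seen to stand lower in the NLRP3KO library than in the WT library at day 3, so every value of that contrast is a description and supports nothing. All 10 symbols were found once in each of the 6 tables. Cells were CD4 T cells of C57/Bl6j mice aged 7 weeks, from spleen and nodes, of animals either wild-type (WT) or NLRP3 KO (NLRP3KO, lacking the NLRP3 inflammasome sensor). For each genotype there was 1 library of naive cells, 1 of cells after 3 days and 1 of cells after 6 days of T helper type 2 (Th2) culture with IL-4 at 10 ng/ml, an antibody against interferon gamma and plates coated with CD3 and CD28 antibodies. RNA for the naive libraries was purified mRNA and that for the Th2 libraries was depleted of ribosomal RNA, so culture and library kind cannot be told apart. How many mice gave each library is not given in the sources used here. With 1 library per group the spread within a group is unknown, and no test was run.

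Ran is a small GTPase that gives transport through the nuclear pore its direction. Rcc1, bound to chromatin, loads Ran with GTP inside the nucleus, and RanBP1 helps the Ran GTPase-activating protein to discharge it in the cytoplasm. Importins release cargo when RanGTP binds them, whereas exportins need RanGTP to hold their cargo. Bulk mRNA leaves the nucleus by another route, through the NXF1 receptor. Lamins form the meshwork under the inner nuclear membrane; B-type lamins are made by nearly all cells, and lymphocytes are known for little lamin A.

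The number of fragments on genes limits what follows. Levels are FPKM, the fragments of a gene corrected for its length and for the fragments mapped in the library, so levels of different genes can be compared within a library. Estimated fragments on genes were inferred from the spacing of the deposited confidence bounds and leave out genes for which that spacing gave no number. They were 1179037 and 979927 in naive WT and naive NLRP3KO. Both day 3 libraries and WT day 6 had between 16157 and 19612, and NLRP3KO day 6 had 3393. The fragments worth 1 FPKM differed less: relative to WT day 3 they were 7.57 and 5.15 times as many in naive WT and naive NLRP3KO, 0.215 times for the NLRP3KO library of day 6, and between 0.787 and 0.931 times for the remaining pair. The gap in gene fragments between naive and Th2 libraries is thus larger than the gap in that depth. Nlrp3 itself was listed at 0 in all libraries but naive WT (FPKM 0.0569, with bounds from 0 to 0.163), so the knockout could not be checked. Among 6 CD4 T cell markers, 4 to 6 were above 0 in every library. Of the defining Th2 cytokine genes, Il4 was above 0 in WT day 3 alone among the Th2 libraries, and Il5 and Il13 were at 0 in all 4. The other 3 Th2 markers examined, Gata3, Il4ra and Irf4, were above 0 in all 6 libraries, naive ones included. FPKM are printed as deposited; log2 differences are of scaled FPKM plus 1, where scaling divides by a factor per library taken from genes above an FPKM of 1 in all 6 libraries. Counting intervals are 95% intervals on estimated fragments and compare libraries, not conditions.

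The reference promoters of 4 members are shown because they cover the Ran cycle, import and mRNA export, and their genes were at least 2-fold lower in NLRP3KO at day 3. Each run is the 250 bases before the annotated start in RefSeq (GRCm38.p6, another build than the deposited tables), read 5′ to 3′ on the gene's strand. Of the 10 genes, 9 were matched in that table; Lmnb1 was not. Capitals mark 6 motifs searched on both strands. They are the E-box CACGTG, the CCAAT box, the GC box with the letters GGGCGG, the E2F-type strings TTTCGCGC and TTTGGCGC, and the CHR element with the letters TTTGAA.
Ranbp1, chr16:18248695-18248944, minus strand: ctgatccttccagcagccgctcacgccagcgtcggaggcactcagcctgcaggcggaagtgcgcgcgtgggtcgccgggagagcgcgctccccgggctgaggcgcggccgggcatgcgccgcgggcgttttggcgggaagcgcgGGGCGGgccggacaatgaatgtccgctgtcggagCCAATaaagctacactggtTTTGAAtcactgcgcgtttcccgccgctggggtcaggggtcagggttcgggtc
Ran, chr5:129019906-129020155, plus strand: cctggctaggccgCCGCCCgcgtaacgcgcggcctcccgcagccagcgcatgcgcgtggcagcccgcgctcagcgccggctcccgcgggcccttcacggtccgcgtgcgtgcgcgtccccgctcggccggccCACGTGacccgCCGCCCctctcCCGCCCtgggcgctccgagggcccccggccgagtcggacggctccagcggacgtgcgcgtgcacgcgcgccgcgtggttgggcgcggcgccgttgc
Kpnb1, chr11:97187893-97188142, minus strand: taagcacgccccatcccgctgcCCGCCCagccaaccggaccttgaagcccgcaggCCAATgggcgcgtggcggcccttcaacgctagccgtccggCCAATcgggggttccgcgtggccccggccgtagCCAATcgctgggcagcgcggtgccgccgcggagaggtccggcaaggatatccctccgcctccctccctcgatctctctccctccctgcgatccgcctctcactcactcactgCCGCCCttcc
Nxf1, chr19:8756853-8757102, plus strand: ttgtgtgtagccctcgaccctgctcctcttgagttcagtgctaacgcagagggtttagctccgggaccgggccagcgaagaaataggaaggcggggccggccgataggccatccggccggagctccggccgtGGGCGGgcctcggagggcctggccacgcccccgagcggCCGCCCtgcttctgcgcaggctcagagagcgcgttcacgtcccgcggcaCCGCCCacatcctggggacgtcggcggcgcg
Matches of different motifs overlapped in 0 cases in these 4 windows. GGGCGG was present in the first listed promoter of 9 of 9 members, and in 32.7% of all 32851 promoter windows, which include every listed promoter of a gene. Among second listed promoters, that of Nxf1 held GGGCGG, and those of Lmnb2 and Lmna did not. In first listed promoters CCAAT was present in 4 of 9 (33.8% of all), with 3 copies before Kpnb1 and 1 before Ranbp1. The letters TTTGAA were present in 3 of 9 (16% of all), and CACGTG in 1 of 9, which was Ran (6.02% of all). TTTCGCGC and TTTGGCGC were present in 0 of 9 (0.256% and 0.417% of all). Only these exact letters were searched, so their absence does not show that E2F-type sites of other letters are absent. The GC content of the members' windows ran from 49.6% to 81.6%; 8 of 9 lay above the median of 52.4% over all windows, and Rcc1 lay below it. A match is a string of letters in the reference and was not tied to any measurement here.

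**Figure D1:**
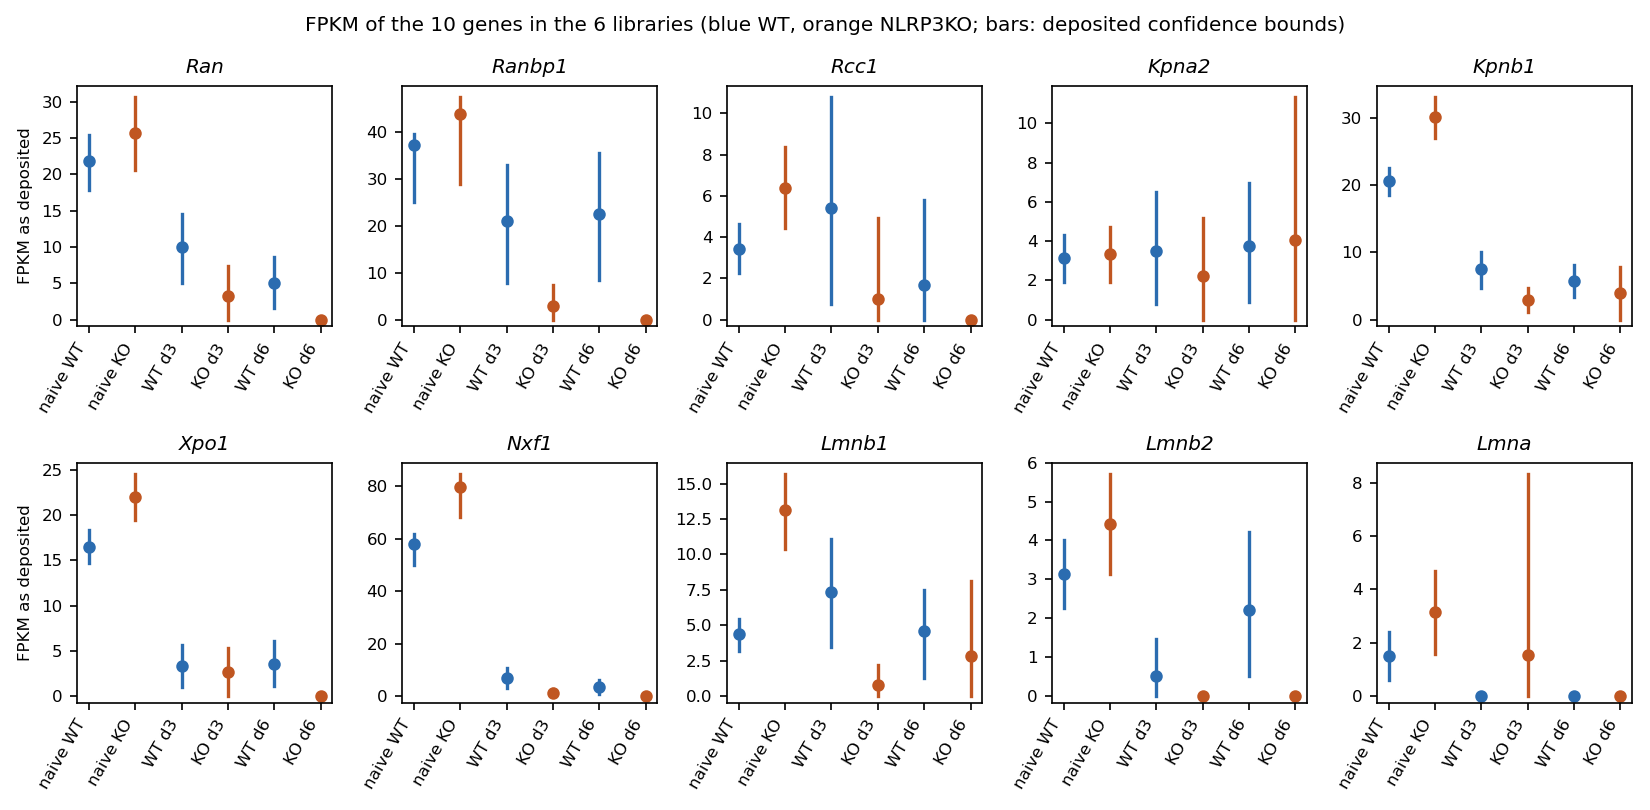
FPKM of each gene (vertical axis, as deposited and not scaled between libraries) in the 6 libraries (horizontal axis, KO for NLRP3KO, d3 and d6 for day 3 and day 6, blue for WT and orange for NLRP3KO), with bars for the authors' confidence bounds. Ranbp1 stands at 21.1 and 22.5 in the WT Th2 libraries and at 2.98 and 0 in the NLRP3KO ones, while Kpna2 stays between 2.22 and 4.08 throughout.

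Of the Ran cycle genes, Ranbp1 (chromosome 16, 18240072 to 18248787 on mm9) was the most abundant in both naive and both WT Th2 libraries. Its FPKM was 37.2 (bounds 25.2 to 39.5) in naive WT, 44.0 (29.0 to 47.5) in naive NLRP3KO, 21.1 (7.77 to 33.0) in WT day 3, 2.98 (0 to 7.41) in NLRP3KO day 3, 22.5 (8.35 to 35.5) in WT day 6 and 0 in NLRP3KO day 6. Both WT Th2 libraries were thus alike and held the gene on about 11 fragments each, whereas NLRP3KO day 3 held 1. The log2 difference at day 3 was -2.79, and the fragment ratio was 0.102 with a counting interval of 0.00237 to 0.701. In the naive libraries the deposited FPKM lay near the upper bound, at an estimated 145 fragments for bounds of 98 and 154 in WT.

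Ran (chromosome 5, 129526031 to 129530196) stood at 21.8 FPKM (17.9 to 25.4) in naive WT and 25.7 (20.6 to 30.6) in naive NLRP3KO, at 10.0 (5.06 to 14.5) and 3.27 (0 to 7.36) at day 3, and at 4.97 (1.55 to 8.55) and 0 at day 6, WT first in each pair. Its day 3 bounds overlapped between the genotypes, the log2 difference was -1.64, and the fragment ratio of 0.320 had an interval of 0.0768 to 1.02. Rcc1 (chromosome 4, 131887834 to 131901665), which encodes the exchange factor for Ran, stood at 3.42 in naive WT, 6.40 in naive NLRP3KO, 5.41 (0.773 to 10.8) and 0.982 (0 to 4.91) at day 3, and 1.66 and 0 at day 6. Its day 3 log2 difference was -2.12, again with overlapping bounds. All 3 genes of the cycle therefore lay lower in NLRP3KO day 3, but only Ranbp1 had bounds apart.

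Kpnb1 (chromosome 11, 97021024 to 97049206), the importin beta that carries cargo through the pore, had the most fragments of the 7 members counted in each Th2 library. Its FPKM was 20.6 and 30.2 in naive WT and naive NLRP3KO, 7.47 (4.76 to 10.1) and 2.92 (1.07 to 4.63) at day 3, and 5.70 (3.31 to 8.13) and 4.01 (0 to 7.83) at day 6. At day 3 this rested on 27 and 8 fragments in WT and NLRP3KO, a ratio of 0.332 (0.130 to 0.752) and a log2 difference of -1.37, with bounds apart. At day 6 the ratio was 0.608 (0.115 to 2.06), so a difference was not detectable at this depth. Kpna2 (chromosome 11, 106849943 to 106860839), an importin alpha that links cargo to importin beta, had close levels as deposited: 3.11 in naive WT against 3.34 in naive NLRP3KO, 3.50 in WT day 3 against 2.22 in NLRP3KO day 3, and 3.75 in WT day 6 against 4.08 in NLRP3KO day 6. Its Th2 values rested on 1 to 4 fragments, and its day 3 ratio of 0.561 had an interval of 0.0507 to 3.91.

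Xpo1 (chromosome 11, 23156041 to 23197597), the exportin for proteins with a leucine-rich export signal, stood at 16.5 in naive WT, 22.0 in naive NLRP3KO, 3.31 (0.993 to 5.65) and 2.65 (0 to 5.30) at day 3, and 3.55 (1.07 to 6.06) and 0 at day 6. The day 3 log2 difference was -0.43, within overlapping bounds. Nxf1 (chromosome 19, 8831593 to 8845400), the mRNA export receptor, was the most abundant member in naive cells, at 58.0 (49.8 to 61.9) and 79.9 (68.4 to 84.8). It stood at 6.97 (2.90 to 10.9) and 0.984 (0 to 2.76) at day 3, and at 3.32 (0.779 to 6.23) and 0 at day 6. The day 3 bounds were apart, with a log2 difference of -2.45 and a ratio of 0.112 (0.00258 to 0.788) from 10 and 1 fragments. Both export genes were listed at 0 in NLRP3KO day 6, where Kpnb1 and Kpna2 were above 0 on an estimated 3 and 1 fragments. Of all genes reaching 1 FPKM in 1 or both day 6 libraries, 59.2% were listed at 0 in 1 library. These zeros therefore do not set export genes apart from import genes.

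The lamin genes differed in level. Lmnb1 (chromosome 18, 56867467 to 56913079), which encodes lamin B1, had FPKM of 4.35 (3.15 to 5.46) in naive WT, 13.1 (10.4 to 15.7) in naive NLRP3KO, 7.36 (3.49 to 11.1) in WT day 3, 0.780 (0 to 2.22) in NLRP3KO day 3, 4.60 (1.25 to 7.50) in WT day 6 and 2.86 (0 to 8.13) in NLRP3KO day 6. It was thus higher in NLRP3KO among naive cells and lower at day 3. The day 3 value rested on 1 fragment against 13, a ratio of 0.0863 (0.00203 to 0.574) and a log2 difference of -2.73, with bounds apart. Lmnb2 (chromosome 10, 80364108 to 80380990), the gene of lamin B2, stood at 3.15 in naive WT, 4.43 in naive NLRP3KO, 0.513 and 0 at day 3, and 2.20 (0.528 to 4.22) and 0 at day 6. Lmna (chromosome 3, 88285071 to 88307254), which gives lamins A and C, had 1.50 (0.602 to 2.39) and 3.13 (1.57 to 4.70) in naive WT and naive NLRP3KO, 1.53 (0 to 8.33) in NLRP3KO day 3, and 0 in the other 3. Lmna was the lowest member in both naive libraries.

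In the naive comparison, which shares no library with the contrast used to choose the genes, 9 of the 10 genes had overlapping bounds between the genotypes after scaling. On scaled FPKM plus 1, none of the 10 was at least 2-fold lower or higher, against 2.32% and 0.21% of the 9985 genes kept, or 1.8% and 0.0701% with bounds apart as well. Their median log2 difference was 0.04 against 0.01 over all genes. Lmnb1 stood apart: its log2 difference of 0.80 exceeded that of 99.5% of the genes kept, and was 1.12 with 0.1 added in place of 1. Its bounds did not overlap after scaling, and its fragment ratio, which has no added 1, was 2.27 (1.64 to 3.18) from 116 and 56 fragments. Kpnb1 had 1.09 (0.972 to 1.23), Nxf1 1.03 (0.917 to 1.16), Ran 0.880 (0.721 to 1.07) and Ranbp1 0.885 (0.688 to 1.14). The naive libraries also differed in the summed FPKM of 5 B cell markers, 78.5 in WT and 35.0 in NLRP3KO as deposited, and 25.7 and 8.57 after scaling. For 4 erythroid markers the sums were 643 and 339 as deposited, and 211 and 83.1 after scaling. All of these markers were above 0 in both libraries. Pooled fragments of 17 proliferation genes took a share of gene fragments in NLRP3KO that was 1.21 times (1.14 to 1.30) the WT share. This scale differs from that of the single-gene ratios above. On it the 7 pooled members had 1.16 (1.08 to 1.24), and 59 pooled other transport and lamina genes had 1.06 (1.03 to 1.09). On the main scaling the 7 members had 1.06 (0.985 to 1.13). The part of the B cell, erythroid and proliferation genes in the Lmnb1 difference was not tested.

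**Figure D2:**
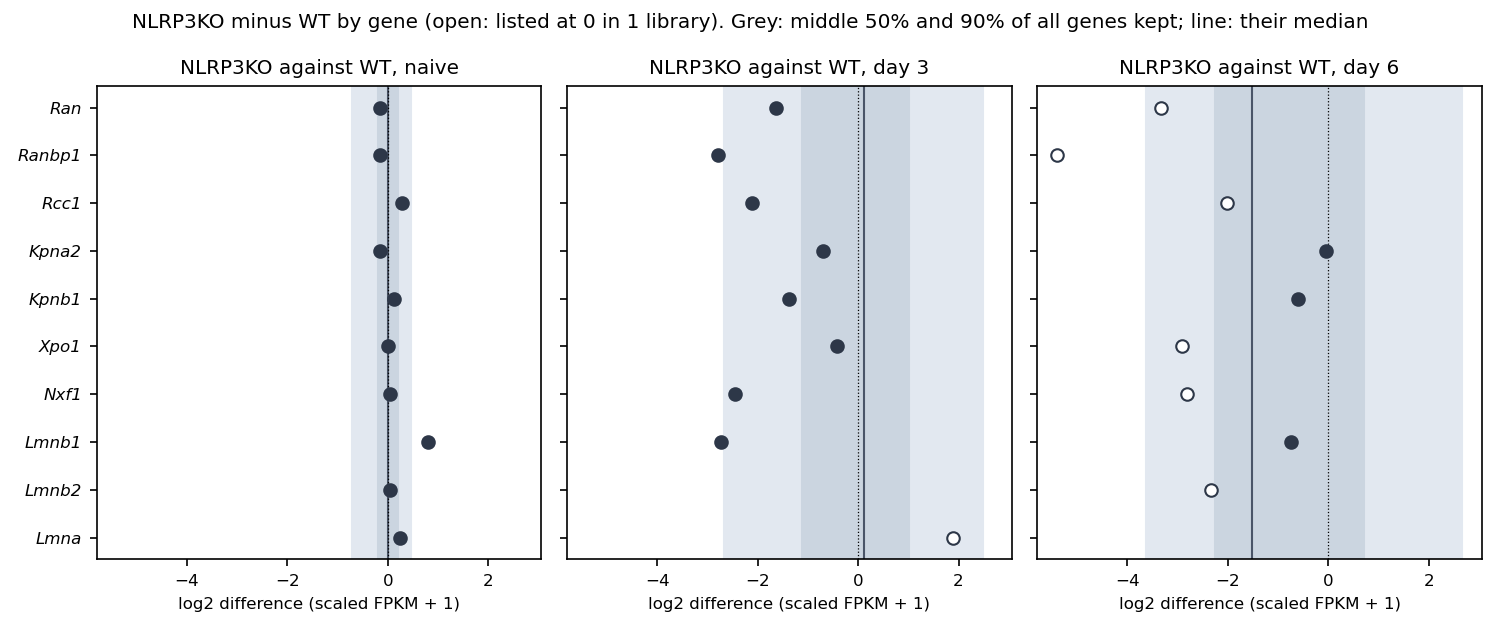
Log2 difference, NLRP3KO minus WT, of scaled FPKM plus 1 (horizontal axis) for each gene (vertical axis) in naive cells, at day 3 and at day 6; open circles are genes listed at 0 in 1 of the 2 libraries, grey bands hold the middle 50% and 90% of all genes kept and the line is their median. Lmnb1 lies outside the wider band in naive cells at 0.80. At day 6 the 6 genes at 0 in NLRP3KO lie left of the median of all genes, -1.52. Of all genes kept at day 6, 59.2% were listed at 0 in 1 library.

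At day 3, 9 of the 10 genes reached 1 FPKM in 1 or both libraries; Lmnb2 did not. Of the 9, 6 were at least 2-fold lower in NLRP3KO, where 27.2% of 5749 genes were, and 1 (Lmna, at 0 in WT) was at least 2-fold higher, where 25.4% were. The median over the 9 was -1.64, and 0.11 over all genes. Values above 0 in both libraries, at least 2-fold lower and with bounds apart held for Ranbp1, Lmnb1, Nxf1 and Kpnb1, and for 0.557% of all genes; the same in the higher direction held for 0 members and 0.818% of genes. These 4 include the 3 that led to the choice of the list, so nothing is read from these counts. For the 7 members with a fragment number, pooled fragments were 79 in WT and 17 in NLRP3KO, which were 0.423% (0.335 to 0.526) and 0.105% (0.0613 to 0.168) of gene fragments. Without Ranbp1, Lmnb1 and Nxf1 they were 46 and 14, a ratio of 0.352 (0.179 to 0.652). Kpnb1 alone gave an estimated 27 and 8 of these. This ratio uses the same libraries as the choice of the genes, so it is a description and no separate check.

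**Figure D3:**
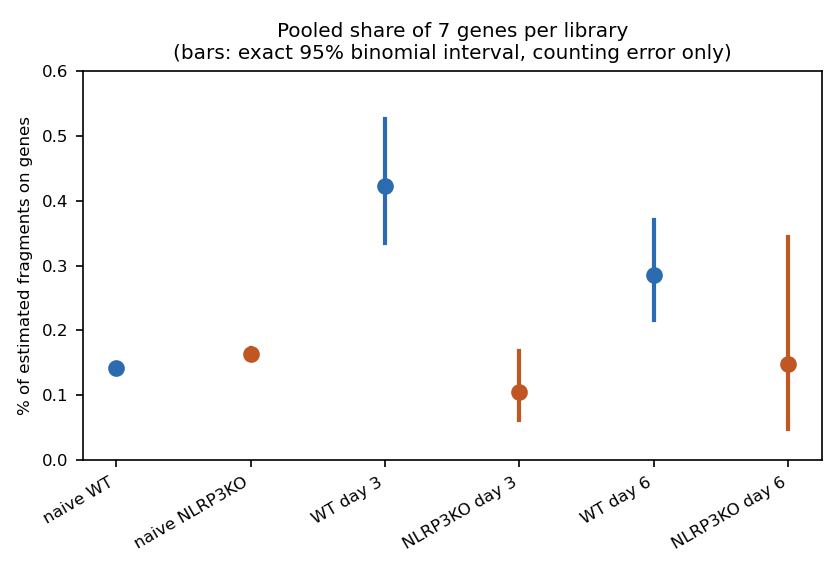
Pooled fragments of the 7 genes with a fragment number (Ran, Ranbp1, Kpna2, Kpnb1, Nxf1, Lmnb1 and Lmnb2) as a percentage of fragments on genes (vertical axis) in each library (horizontal axis, blue for WT and orange for NLRP3KO), with exact 95% binomial intervals for counting error. WT day 3 is highest at 0.423%, and the widest interval on a relative scale is that of NLRP3KO day 6, from 0.0479% to 0.344%.

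The day 6 comparison shares no library with the day 3 one, but its NLRP3KO library was too shallow for single genes. Of 9 genes with enough signal 6 lay at least 2-fold lower and 0 higher, against 53.8% and 20.9% of 5336 genes, and all 6 were listed at 0 in NLRP3KO. Of the 5336 genes, 59.2% were listed at 0 in 1 library of the comparison, so the zeros are not particular to the members. With bounds apart there were 0 members lower and 0 higher, against 0.581% and 0.169% of genes. An FPKM of 3 fragments there would be 27.1 for Ranbp1, 10.1 for Ran, 10.1 for Nxf1 and 6.86 for Lmnb2, each above its WT value, so these 4 differences could not be measured. The median of the 9 was -2.33 and that of all genes -1.52. Pooled over 7 members, 5 fragments in NLRP3KO and 56 in WT gave a ratio of 0.516 (0.161 to 1.28) as a share of gene fragments and 0.344 (0.107 to 0.851) on the main scaling. The interval thus held 1 under the first scaling and not under the second.

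Within WT cells, day 6 differed from day 3 by less than counting error for each of the 7 members with fragments. Ran stood lower at day 6 (ratio 0.417, interval 0.131 to 1.16), as did Nxf1 (0.389, 0.0891 to 1.35) and Lmnb1 (0.524, 0.177 to 1.41), while Ranbp1 and Kpna2 had 0.973. Among the 9 with enough signal 3 lay at least 2-fold lower and 1 higher (Lmnb2), against 20.2% and 24.1% of 5592 genes; with bounds apart it was 0 and 0, against 0.304% and 0.161%. Pooled, the ratio was 0.676 (0.471 to 0.964) as a share of gene fragments, and 0.719 (0.491 to 1.04) without Nxf1. In NLRP3KO 4 of 7 kept were lower and 1 higher between these days, against 51.8% and 21% of 5207 genes, and with bounds apart 0 and 0, against 0.25% and 0.0576%. The pooled 5 and 17 fragments gave 1.40 (0.404 to 3.95).

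Set against naive cells, WT day 3 held more of 6 members after scaling, namely Ran, Ranbp1, Rcc1, Kpna2, Kpnb1 and Lmnb1, each at least 2-fold higher and with scaled bounds apart. At least 2-fold higher were 9.99% of 9562 genes, and 2.93% also had bounds apart; lower were 0 of 10 members and 31.3% of genes, 5.77% with bounds apart. Lmnb1 had the largest of these ratios, 10.8 (5.41 to 20.0), followed by Kpna2 at 6.41 (1.64 to 18.3), Ranbp1 at 3.53 (1.72 to 6.50), Ran at 2.85 (1.54 to 4.89) and Kpnb1 at 2.26 (1.47 to 3.32). As deposited, without scaling, Ran, Ranbp1 and Kpnb1 were lower at day 3, with log2 differences of -1.04, -0.79 and -1.35, while Rcc1, Kpna2 and Lmnb1 were still higher, by 0.54, 0.13 and 0.65. Upper quartile scaling left 4 of the 6 at least 2-fold higher, with Ran at 0.86 and Kpnb1 at 0.53 on the log2 scale, and Kpnb1 also missed 2-fold with the pairwise median ratio (0.84) and with a pseudocount of 3 (0.89). Nxf1 had 0.768 (0.367 to 1.42) after scaling. In NLRP3KO 2 members were at least 2-fold higher at day 3 (Kpna2 and Lmna) and 2 lower (Nxf1 and Lmnb2), against 10.8% and 32.1% of 10048 genes. With bounds apart 1 was lower, Nxf1 at 0.0837 (0.00211 to 0.468), and 0 higher, against 5.11% and 2.56% of genes. The WT and NLRP3KO day 3 libraries are those of the contrast used for the choice, so these values restate it in part.

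The rest of the transport and lamina genes, listed by function, had a median near 0 at day 3 between the genotypes. Of 90 such genes found, 63 had enough signal, 14 lay at least 2-fold lower and 10 higher, against 27.2% and 25.4% of all genes, and the median was -0.12. With bounds apart there were 0 of 63 in either direction, where 0.557% of all genes were lower and 0.818% higher. Pooled over 59 of them, 158 fragments against 194 gave a ratio of 0.943 (0.759 to 1.17). Among Ran cycle partners, Ranbp2, a pore protein that binds Ran, had 4.96 (2.89 to 6.88) in NLRP3KO and 1.95 (0.873 to 2.97) in WT, a log2 difference of 0.99, and Rangap1, the Ran GTPase-activating protein, 4.49 (0 to 8.99) and 2.36 (0 to 5.87). Importins other than the members had 2 of 9 lower and 0 higher with a pooled ratio of 1.36 (0.799 to 2.34). Exportins had 1 of 4 lower and 1 higher (0.833, 0.428 to 1.59), and mRNA export genes 4 of 14 lower and 3 higher (0.772, 0.383 to 1.51). Of the mRNA export genes, Ddx39 had 1.39 (0 to 5.07) in NLRP3KO and 8.75 (2.99 to 15.0) in WT. Ddx39b had 3.96 (0 to 10.7) and 15.6 (6.23 to 24.1), and Nxt1, a higher one, 5.13 (0 to 17.6) and 0. These lists are small, and their counts are read against the same shares of all genes, 27.2% lower and 25.4% higher.

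Nucleoporins, the proteins of the pore, had 6 of 20 lower, a share near the 27.2% of all genes, and 1 higher (25.4% of all), with a pooled ratio of 0.692 (0.475 to 0.997). Nup210, a membrane nucleoporin, had 3.66 (1.79 to 5.68) in NLRP3KO and 4.80 (2.82 to 6.82) in WT. Nup93 had 0 and 2.38 (0.565 to 4.52), and Sec13, the 1 higher, 3.64 (0 to 8.08) and 0. Lamina and inner membrane genes had 1 of 11 lower and 3 higher (1.04, 0.519 to 2.07). The 1 lower, Emd, was 0 in NLRP3KO against 2.86 (0 to 6.35) in WT. Lbr, the lamin B receptor gene, was 6.18 (2.37 to 9.48) against 4.37 (1.86 to 6.99), while Lmnb1 in the same libraries was 0.780 against 7.36. The members were chosen after Ranbp1, Lmnb1 and Nxf1 were seen to stand low in these libraries. The lists were chosen with earlier results of these data known. The gap between members and lists was therefore not tested. In the other comparisons with WT, 1 of these 90 genes was apart in naive cells, Sarnp, an mRNA export gene, at 9.11 in NLRP3KO and 21.5 in WT with a log2 difference of -1.32, and 0 at day 6. The shares of all genes lower with bounds apart were 1.8% and 0.581%, so neither count sets these lists apart.

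**Figure D4:**
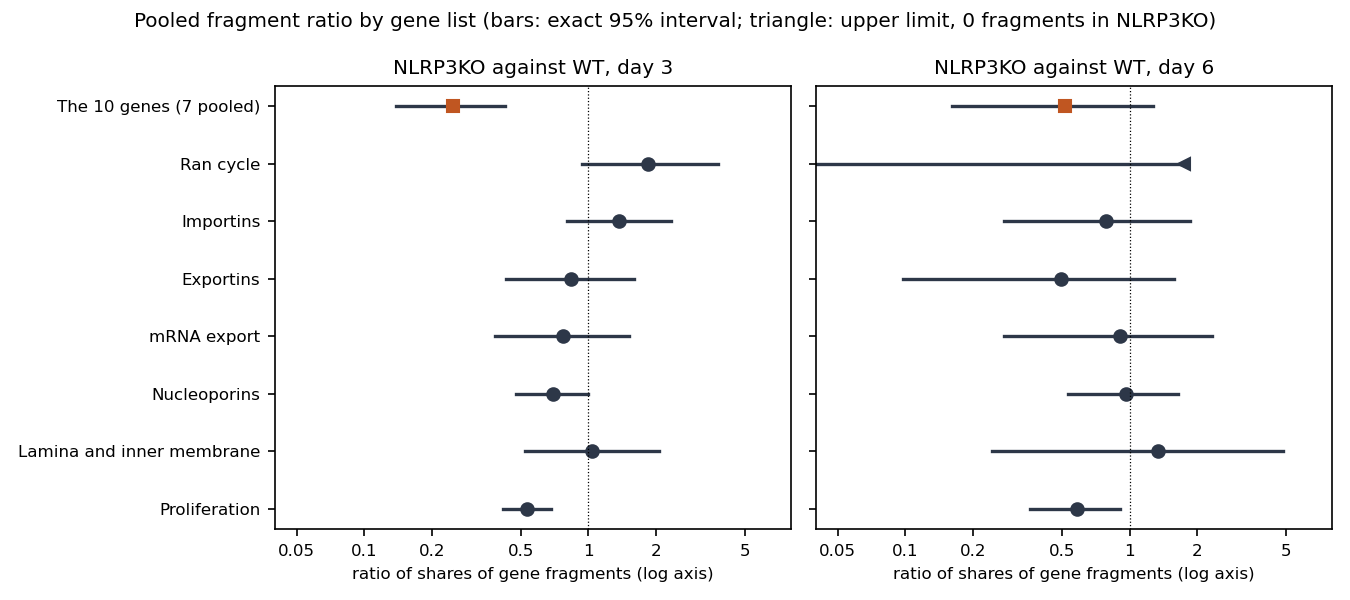
Ratio of pooled fragments, NLRP3KO over WT as shares of gene fragments (horizontal axis, log scale), for the 7 members with fragments (square) and for 7 gene lists (circles) at day 3 and day 6, with exact 95% intervals; the triangle is the upper limit for 0 fragments in NLRP3KO. At day 3 the members lie at 0.249 and proliferation genes at 0.534, while the other lists lie between 0.692 and 1.85.

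Several members, among them Lmnb1, Kpna2, Rcc1 and Ranbp1, are known to be more abundant in dividing cells, so proliferation genes are given beside them. At day 3, 8 of 19 lay at least 2-fold lower in NLRP3KO and 1 higher, against 27.2% and 25.4% of all genes. Their median was -0.95, and 96 against 208 pooled fragments gave a ratio of 0.534 (0.415 to 0.683). Mki67, the gene of the Ki-67 antigen, was 5.08 (3.13 to 7.10) against 9.83 (7.39 to 12.3), whereas Top2a, a topoisomerase of dividing cells, was 9.13 (5.65 to 12.9) against 7.51 (4.44 to 10.5). The pooled ratio at day 6 was 0.583 (0.358 to 0.906). The part of proliferation in the members' values was not tested, and in bulk RNA fewer cells of a type and less RNA per cell cannot be told apart.

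Genes most like 3 members were sought by the distance between centred profiles of log2 scaled FPKM plus 1 over the 6 libraries, among 4157 other named genes. Nearest to Ranbp1 were Rcc2 (distance 1.03), C1qbp (1.08) and Slc3a2 (1.14), against a median of 4.50. Rcc2 had FPKM of 8.68 and 2.32 at day 3 in WT and NLRP3KO and 14.2 and 0 at day 6. Nearest to Lmnb1 were Cbx5 (1.00), Eif4enif1 (1.01) and Xpot (1.09), the last an exportin for tRNA with 2.55 and 0.720 at day 3. Nearest to Nxf1 were Dennd2d (0.814), Arhgap15 (0.827) and Hcls1 (0.851), with naive WT FPKM of 36.4, 48.4 and 36.9. Among the members themselves Ran was nearest to Ranbp1 (1.77), Kpnb1 to Lmnb1 (1.47) and Xpo1 to Nxf1 (2.44). These distances rest on 6 libraries of unlike depth and kind and are a description. Ranbp1, Lmnb1 and Nxf1 are the genes behind the choice, and the profiles include their day 3 values. Low NLRP3KO day 3 values of the nearest genes therefore restate the choice.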

How the data were processed

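The authors deposited 1 table per library with FPKM and a lower and upper confidence bound per gene; TopHat, Cufflinks and mm9 are named in the submitters' processing notes, and their versions and the annotation are not given there. Of 23700 entries, 285 with too little data were left out. FPKM were scaled by the median ratio over 1059 genes reaching 1 FPKM in every library, and differences are log2 of scaled FPKM plus 1, over genes reaching 1 FPKM in 1 or both of the libraries compared. Bounds were called apart after scaling, for values above 0 in both libraries. The FPKM of 1 fragment was taken as the step of which all bounds of a gene are whole multiples (tolerance 0.02 fragments), found for 7585 of 10843 genes with a lower bound above 0 and for 7 of the 10 genes; Rcc1, Xpo1 and Lmna gave none. Fragments on genes are summed over genes with such a step, without small RNAs and models of up to 300 bases. Genes without a step are thus missing from these totals and from all shares of gene fragments. Intervals are exact conditional binomial or Clopper-Pearson intervals at 95%; the libraries were amplified by PCR, so they cover counting error only. The step search was tested on simulated data. Where a listed symbol had several entries, the one with the highest summed FPKM was used; each of the 10 genes had 1. Genes named from the lists were those 2-fold apart with bounds apart, at most 4 per list. Ranbp2, Rangap1, Ddx39, Ddx39b, Nxt1, Nup210, Nup93, Sec13, Emd, Lbr and Top2a were named after their values were seen. The members and all lists were chosen with earlier results of these data known. Coordinates of genes are mm9, counted from 1. Python 3.11.15, numpy 2.4.6, pandas 2.3.3 and scipy 1.17.1 were used. Ran and Kpna2 may share reads with near-identical copies, for which the authors' counting is not known.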

Additional observations from a re-analysis of the deposited data

Results flagged for a closer look

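Lmnb1 was picked out because its genotype difference pointed in opposite directions at 2 stages, each past counting error. The day 3 direction was fixed by the choice of the genes and supports nothing, which leaves the naive value as a measurement of its own. The NLRP3KO library held 2.27 times the WT level in naive cells and 0.0863 times at day 3. Each stage is 1 library per genotype, the day 3 value rests on 1 fragment in NLRP3KO, and the difference between the stages was not tested.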

How the results depend on the processing

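At day 3 the count of members at least 2-fold lower was 6, and 7 with no filter on low values, under the alternatives, and the median ran from -2.28 (minimum FPKM of 5) to -1.37 (no scaling); the 1 higher member became 0 with a pseudocount of 3 and with a minimum FPKM of 5. In naive cells 1 member was at least 2-fold higher without scaling, where the median was 0.43, and 1 with a pseudocount of 0.1. At day 6 a minimum FPKM of 5 left 1 lower member, and a pseudocount of 0.1 moved the median to -5.36; upper quartile scaling gave 8 lower, with Kpnb1 at -1.39 and Lmnb1 at -1.50. Between day 3 and day 6 in WT, the lower count was 1 without scaling and 1 with a pseudocount of 3, and the higher count 0 with a pseudocount of 3 and 0 with a minimum of 5. In NLRP3KO the higher count was 0 with upper quartile scaling, 0 with a pseudocount of 3 and 2 when scaled by fragments on genes, an alternative chosen after seeing the data; the median was -4.81 with a pseudocount of 0.1, and a minimum of 5 left no member.

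Against naive cells the values turned on scaling. In WT without scaling 6 members were lower and 0 higher, the median reversed to -1.18, and Ran (-1.04), Ranbp1 (-0.79) and Kpnb1 (-1.35) reversed; with a pseudocount of 0.1, 1 was lower. The higher count was 4 with upper quartile scaling, and 5 with the pairwise median ratio, a pseudocount of 3 or a minimum of 5. In NLRP3KO without scaling 8 were lower and 0 higher, the median was -2.65, and Kpna2 (-0.43) and Lmna (-0.71) reversed. There, upper quartile scaling gave 4 lower and 1 higher, the pairwise median ratio 1 higher, a pseudocount of 0.1 gave 4 lower, a pseudocount of 3 gave 1 lower and 0 higher, a minimum of 5 gave 1 lower and 0 higher, and scaling by fragments on genes 1 lower. Omitting scaling shifted the log2 ratio of FPKM, before 1 is added, by -2.62 in WT and -2.86 in NLRP3KO. In the naive comparison that shift was 0.42. With 1 added, genes moved by unlike amounts. In WT the median over genes above 0 in both libraries went from -0.001 to -1.91. The cause of the other moves was not tested. Of 483 single-gene values under alternatives, 452 stayed within the counting interval. For Rcc1, Xpo1 and Lmna, which have none, the limit was 1 log2 unit. Changing or dropping the minimum FPKM cannot move a gene's value, so those values stayed by construction. Wide intervals also took in large moves: with a pseudocount of 0.1, Ranbp1 at day 6 went from -5.39 to -8.69 and still counted as within. The 452 is therefore no measure of robustness. The labels give no replicate numbers that pair libraries; a fit of genotype with stage as a block over the 6 libraries was not run.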
